A study of Homo sapiens with 9 samples.

Results

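A pair of small interfering RNAs (siRNAs) against the same long noncoding RNA, LINC00857, were compared directly with each other. The samples were chosen as the 3 libraries labelled siRNA1 and the 3 labelled siRNA2, which are 6 of the 9 RNA-seq libraries of the series, and every gene that passed a filter on low counts was tested, 19996 of the 35817 genes in the count table. All libraries came from HCT116, an established human colorectal carcinoma cell line. Cells of the siRNA1 group were transfected with LINC00857-siRNA1#, cells of the siRNA2 group with LINC00857-siRNA2#, and cells of the NC group with a negative control siRNA, in each case with Lipofectamine RNAiMax. The 3 NC libraries stayed out of the test and are given only to show the control level. A single cell line was used. Nothing in the sources states that replicates of a group were grown as separate cultures, and the p-values therefore refer to the spread among these libraries, part or all of which may be technical.

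A small interfering RNA is a short RNA duplex of which one strand, the guide, is loaded into an Argonaute protein and leads it to transcripts that pair with the guide. Near-complete pairing leads to cutting of the transcript. Pairing through only the seed, a short stretch near the 5′ end of the guide, can also lower the level of a transcript, mostly through sites in 3′ untranslated regions (3′ UTRs), in the manner of a microRNA. Different siRNAs against one RNA are used together because they share the intended target and differ in seed.

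The target sites are shown because they are what separates the groups. Each is the 19-base stretch of LINC00857 that pairs with the guide, written as DNA from 5′ to 3′, with capitals marking the 7 letters that pair with bases 2 to 8 of the guide.
siRNA1 target: ggctatgtgctGTGAACAa
siRNA2 target: ggtattagtggGTGAATAt
Both sites lie in exon 2 of LINC00857 on the plus strand, a lincRNA annotated at chr10:80207710-80219657 in GENCODE v29 (GRCh38). The siRNA1 site was found at chr10:80219029-80219047 and the siRNA2 site at chr10:80218526-80218544, 503 bases upstream. Of the 2 annotated transcripts, the longer one (2161 bases) holds both sites and the shorter one (629 bases) holds only the siRNA2 site. The targets had the same letter at 9 of 19 positions, but the 7-letter seed sites shared 6 of 7 letters and differed by C6T, counted from 1 at the 5′ end of the seed site with the siRNA1 letter first.

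The 6 libraries held 51411860 to 57815092 counts, so depth was similar in both groups. Between 26304 and 26449 genes had at least 1 count in the siRNA1 libraries, against 25527 to 25868 in the siRNA2 libraries, and mitochondrial genes took 9.02 to 9.59% of counts with siRNA1, against 9.53 to 9.79% with siRNA2. The first principal component held 48.4% of the variance and separated the 2 siRNAs, and the second held 14.7% and set siRNA2 replicate 2 apart from the other libraries. Epithelial markers summed to 3640 to 4120 CPM (counts scaled to one fixed total per library) with siRNA1, against 3820 to 3950 CPM with siRNA2. KRT8, KRT18, KRT19 and EPCAM were well expressed. KRT20 reached at most 2.61 CPM in any library, and VIL1, CDX1, CEACAM5, LGALS4 and CDH17 at most 0.605 CPM. Leukocyte markers stayed at or below 1.92 CPM in sum and endothelial markers at or below 2.3 CPM. Fibroblast markers summed to 58.6 to 65.5 CPM with siRNA1, against 26.8 to 29.8 CPM with siRNA2, nearly all of it COL1A1, while THY1 and POSTN were at or near 0.

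LINC00857 itself had 213, 235 and 207 raw counts with siRNA1, against 182, 163 and 239 with siRNA2, and 522, 416 and 511 in NC. The siRNA1 and siRNA2 libraries overlapped, and all 6 lay below all 3 NC libraries. After normalization the level was 44.0% ± 3.09 of the NC mean with siRNA1 and 41.5% ± 7.75 with siRNA2 (SD, n = 3 each). The log2 difference, siRNA1 minus siRNA2, was 0.08 ± 0.20 (SE; adjusted p = 0.811, edgeR's quasi-likelihood test with Benjamini-Hochberg adjustment), and its 95% interval of -0.36 to 0.52 allows a level with siRNA1 of 0.78 to 1.44 times that with siRNA2. The knockdown therefore did not differ detectably at about 200 counts per library, and a difference inside that interval remains possible.

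Beyond the target, the transcriptomes differed widely. Between the siRNAs, 5933 genes (29.7% of those tested) passed an adjusted p of 0.05, of which 2995 (15.0%) were higher and 2938 (14.7%) lower with siRNA1. A gene called lower with siRNA1 is by construction the same as one higher with siRNA2. Most differences were small, with a median fold of 1.36 among the genes called higher and 1.32 among those called lower, and the median of all genes tested was a log2 difference of 0.003. With a log2 difference over 1 as well, 769 genes (3.85%) were called, 493 (2.47%) higher and 276 (1.38%) lower. The 2 groups of libraries did not overlap for 43.4% of genes. Protein-coding genes gave most of the calls, with 2800 higher and 2689 lower of 14202 tested. Of 1088 lincRNA genes, 57 were higher and 65 lower, and of 1557 antisense genes, 33 were higher and 71 lower. The share called depended on depth: 3.88% of genes with a mean under 50 normalized counts were called, against 58.9% of genes with a mean of 5000 or more, while the median SE was 0.706 in the first of these classes and 0.043 in the second.

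**Figure D1:**
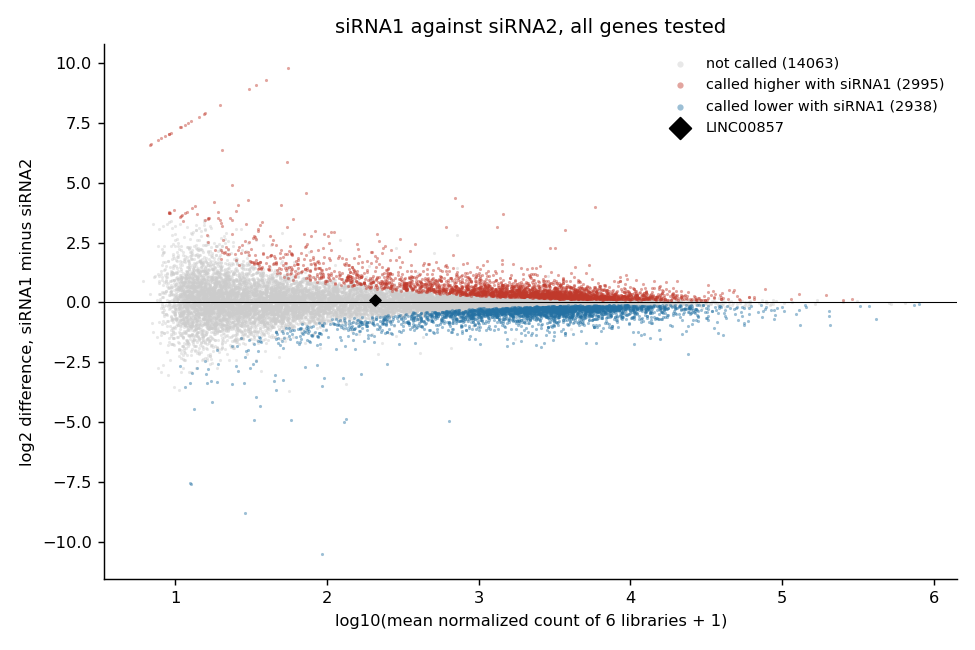
Log2 difference, siRNA1 minus siRNA2, against the log10 of the mean normalized count of the 6 libraries plus 1, for the 19996 genes tested. Red points are the 2995 genes called higher and blue points the 2938 called lower with siRNA1, the straight lines of points at low counts are genes at 0 in one group, and the black diamond, LINC00857, lies close to 0.

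Among the genes with the largest differences were the glucose transporter gene SLC2A3 and several keratins. SLC2A3 (GLUT3), a high-affinity glucose transporter, had 10622, 11174 and 11274 normalized counts with siRNA1, against 646, 650 and 779 with siRNA2. Its siRNA1 libraries were all far above the siRNA2 libraries, with a log2 difference of 3.99 ± 0.07 (adjusted p = 2.74e-10), and NC, at a mean of 1358, lay between them. KRT80, a type II keratin, had 1334, 1529 and 1522 normalized counts with siRNA1, against 73.9, 105 and 94.6 with siRNA2, a log2 difference of 4.0 ± 0.15 (adjusted p = 3.62e-08). Here NC, with 988, 905 and 1024, lay below the siRNA1 libraries and far above the siRNA2 libraries. DCLK1, a kinase that binds microtubules and marks tuft cells of the gut, had 1027, 1056 and 1211 normalized counts with siRNA1, against 126, 123 and 122 with siRNA2, with NC at 410, 353 and 464. All 3 groups were separate, and siRNA1 exceeded siRNA2 by a log2 difference of 3.15 ± 0.13 (adjusted p = 7.2e-08). KRT7, a simple-epithelium keratin, had 2637, 2228 and 2291 normalized counts with siRNA1, against 354, 231 and 232 with siRNA2, a log2 difference of 3.13.

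CYP11A1, which cleaves the cholesterol side chain as the first step of steroid hormone synthesis, had 131, 111 and 173 normalized counts with siRNA1, against 3.94, 0 and 13.2 with siRNA2 and 7.94, 0 and 9.89 in NC. It was raised in the siRNA1 libraries alone, with a log2 difference of 4.55 ± 0.70 from siRNA2 (adjusted p = 0.000603). KRT86, a hair keratin whose annotated span overlaps KRT7 and KRT81, had 130, 82.9 and 104 normalized counts with siRNA1, against 0, 0 and 5.09 with siRNA2. The groups did not overlap (log2 difference 5.84 ± 0.80), but the sources used here do not give how reads were shared between these similar and overlapping keratin genes, so the size is uncertain.

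The genes lower with siRNA1 included an enzyme of retinoid metabolism, keratins and a hypoxia-linked transcript. ALDH1A1, which oxidizes retinal and is widely used as a stem-like cell marker, had 0, 23.4 and 0 normalized counts with siRNA1, against 377, 182 and 187 with siRNA2, and 0 in all 3 NC libraries. Only the siRNA2 libraries held a clear level, a log2 difference of -4.98 ± 0.93 (adjusted p = 0.00209, and 0.0602 with DESeq2). KRT6A, a keratin of activated and stratified epithelium, had 8.45, 19.5 and 17 normalized counts with siRNA1, against 123, 187 and 195 with siRNA2. KRT32, a hair keratin, had 23.5, 20.5 and 13 with siRNA1, against 195, 166 and 148 with siRNA2. Both keratins were raised in the siRNA2 libraries, since NC had at most 11.9 for KRT6A and 42.7 for KRT32, and the log2 differences were -3.48 ± 0.38 and -3.15 ± 0.32 in that order. MIR210HG, the host transcript of the hypoxia-induced miR-210, had 38.5, 51.7 and 21.0 normalized counts with siRNA1, against 290, 263 and 346 with siRNA2 and 213, 292 and 218 in NC. The siRNA1 libraries were the low ones here (log2 difference -3.01 ± 0.31, adjusted p = 4.06e-05). YPEL1 was also lower with siRNA1 than with siRNA2, with 14.1, 14.6 and 0 with siRNA1, against 91.7, 93.1 and 88.5 with siRNA2, a log2 difference of -3.23 ± 0.74. Its annotated span overlaps PPIL2 on the opposite strand, and the strand setting of the counts is not stated, so this size is uncertain.

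The remaining large differences came from gene models that overlap other genes and are uncertain for that reason. TRIM6-TRIM34, a readthrough model over TRIM6 and TRIM34, had 105, 109 and 123 raw counts with siRNA1, against 0 in each siRNA2 library, which makes it at least 36.4-fold higher with siRNA1 against a floor of 3 counts per library. In NC it had 0, 97.6 and 0 normalized counts, so replicates of one group also switched between the same 2 levels. RPL36A-HNRNPH2, also a readthrough model, had 16.9, 69.2 and 34.0 normalized counts with siRNA1, against 1342, 1243 and 1123 with siRNA2, and again split within NC (93.3, 1294 and 97.9). AC006064, which lies within GAPDH on the opposite strand, had 0 counts in all 3 siRNA1 libraries, against 40, 356 and 122 raw counts with siRNA2, and was at least 61.5-fold lower with siRNA1 against the same floor. AC007192, which overlaps PIK3R2 and IFI30 on the same strand, had 500, 4269 and 3287 normalized counts with siRNA1, against 375, 182 and 62.1 with siRNA2, and ranged as widely within NC (4706, 512 and 76.1). It was not called by limma-voom (adjusted p = 0.102). AC002470 (log2 difference 3.50 ± 0.84), which overlaps LZTR1 and AIFM3, and AC093536 (-4.91 ± 0.98), a processed pseudogene that overlaps a lincRNA on the same strand, were also called, with 1 library of each at least 2 times apart from the others of its group.

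**Figure D2:**
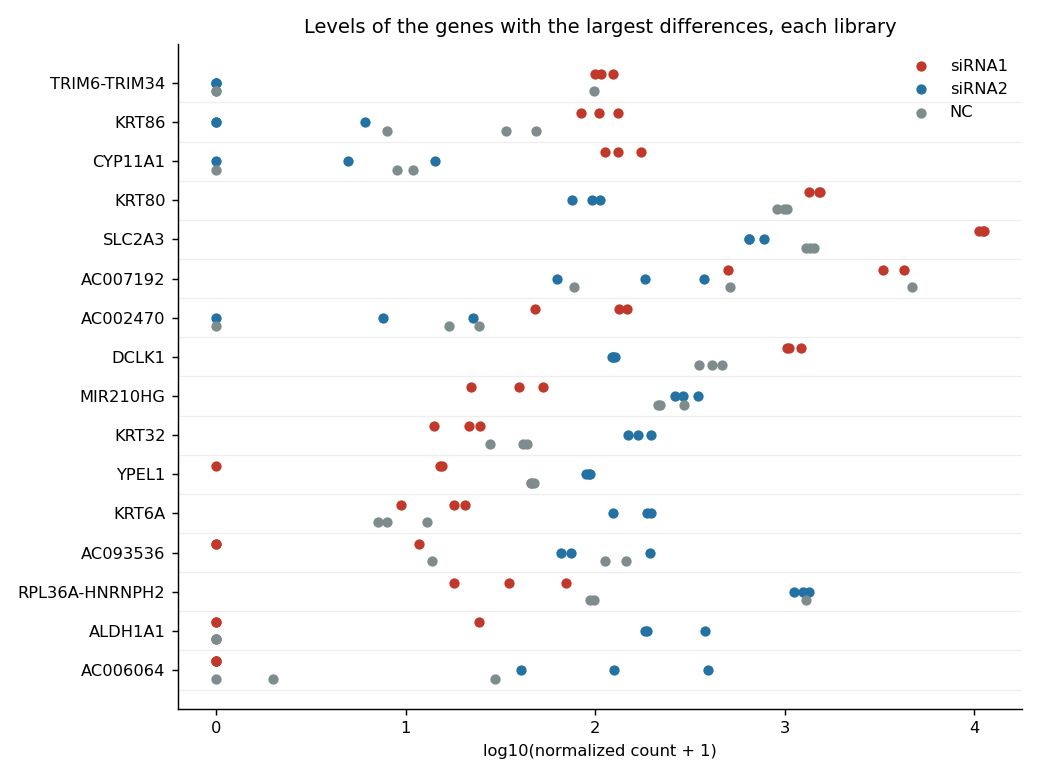
Normalized counts of each library on a log10(count + 1) axis for the 8 genes with the largest called differences in each direction, with siRNA1 in red, siRNA2 in blue and NC in grey. The siRNA1 and siRNA2 points do not overlap for any of the 16 genes, and the NC points of TRIM6-TRIM34, AC007192 and RPL36A-HNRNPH2 reach both levels.

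In CPM, the largest differences lay in abundant cytoskeletal, metabolic and mitochondrial RNAs. AKAP12, a scaffold protein for protein kinase A, had 136440, 144624 and 145401 normalized counts with siRNA1, against 269043, 269527 and 270452 with siRNA2, which is 2570 CPM against 4880 CPM. AHNAK, a giant scaffold protein, averaged 1630 CPM with siRNA1 and 3100 CPM with siRNA2. Both were lower with siRNA1 by similar amounts, with log2 differences of -0.92 ± 0.03 and -0.93 ± 0.04 for AKAP12 and AHNAK. The mitochondrial 16S ribosomal RNA MT-RNR2 averaged 5760 CPM with siRNA1 and 9290 CPM with siRNA2 (-0.69 ± 0.03). GAPDH, often taken as a constant reference, averaged 2970 CPM with siRNA1 and 4430 CPM with siRNA2 (-0.58 ± 0.04), and the atypical cadherin FAT1 averaged 3200 and 4160 CPM in the same order (-0.38 ± 0.04). In the other direction, the cytosolic chaperone HSP90AA1 averaged 3910 CPM with siRNA1 and 3150 CPM with siRNA2 (0.31 ± 0.02), ACTB 2610 and 2080 CPM (0.33 ± 0.02), the mitochondrial chaperonin HSPD1 1670 and 1140 CPM (0.55 ± 0.03), and the initiation factor EIF4B 1030 and 725 CPM (0.50 ± 0.03). The libraries of these genes did not overlap. MT-ND4 (-0.11 ± 0.03) and MT-ND2 (0.12 ± 0.03) also passed the threshold, but MT-ND4 lost it without siRNA2 replicate 2 (adjusted p = 0.0513), and MT-ND2 lost it without siRNA1 replicate 2, siRNA1 replicate 3 or siRNA2 replicate 1.

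Gene groups were described by lists of pathways, complexes and cell states that together held 1023 different genes tested, of which 276 (27.0%) were higher and 278 (27.2%) lower with siRNA1. These shares exceed those of all genes tested, 15.0% and 14.7%, and the listed genes are mostly protein-coding, a class with 19.7% higher and 18.9% lower. The lists are therefore read against each other and by their balance of directions. A list with shares near 27.0% higher and 27.2% lower is not set apart from the listed genes together.

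**Figure D3:**
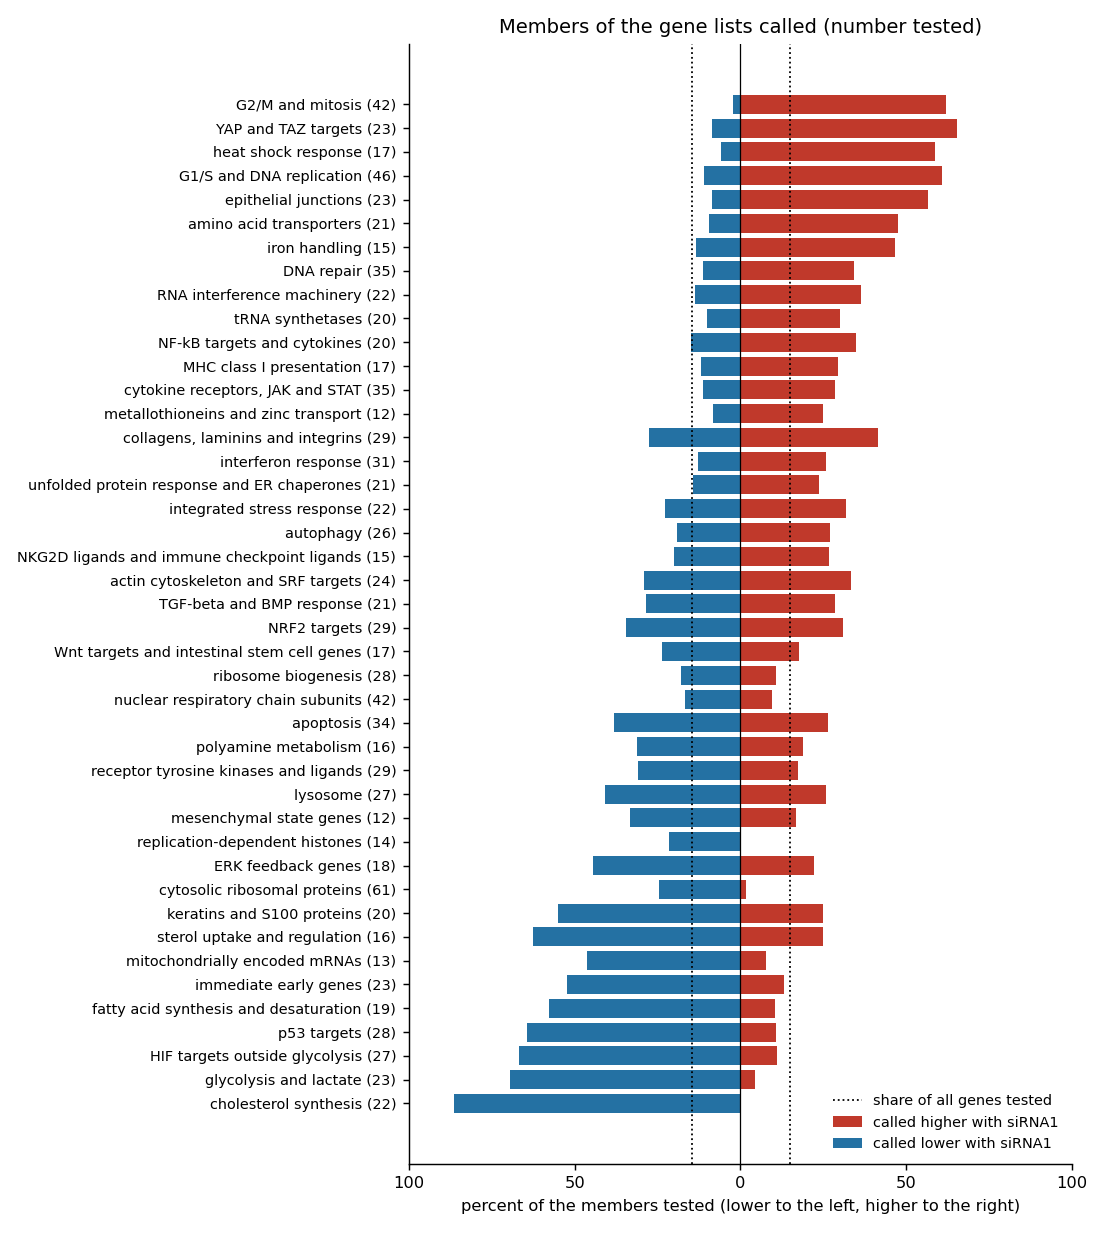
Percent of the tested members of each gene list called higher (red, to the right) and lower (blue, to the left) with siRNA1, ordered by the difference of the shares, with the number tested in brackets and the shares of all genes tested as dotted lines. G2/M and YAP and TAZ target lists stand at the top, and cholesterol synthesis, glycolysis and HIF target lists at the bottom.

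Sterol synthesis was lower with siRNA1 along nearly the whole pathway. Of 22 enzymes of cholesterol synthesis tested, 19 were lower and 0 higher by edgeR, DESeq2 or limma-voom, with a median log2 difference of -0.60, and the 3 not called included GGPS1 (-0.11) and EBP (-0.13). The mevalonate-pathway isomerase IDI1 had 4387, 4290 and 4162 normalized counts with siRNA1, against 9617, 8604 and 8874 with siRNA2. The groups did not overlap, and NC lay between them at a mean of 7159. Log2 differences were -1.08 ± 0.05 for IDI1, -0.95 ± 0.05 for MVD and -0.61 ± 0.04 for DHCR7.

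The regulators of sterol uptake were called in both directions, with NPC1 lower and NPC2 higher. Of 16 tested, 10 were lower, among them the sterol sensor INSIG1 (-0.87 ± 0.05), the HDL receptor SCARB1 (-0.71 ± 0.04) and the cholesterol carrier STARD4 (-0.60 ± 0.05). The 4 that were higher were the cholesterol exporters ABCA1 (1.63 ± 0.21) and ABCG1 (1.37 ± 0.44), MYLIP (0.76 ± 0.15), a ligase that degrades the LDL receptor, and NPC2 (0.56 ± 0.09), a lysosomal cholesterol carrier. ABCA1 had 252, 209 and 266 normalized counts with siRNA1, against 73.0, 75.5 and 86.5 with siRNA2. ABCA1, ABCG1 and MYLIP are known targets of the sterol-sensing liver X receptors, whose activity was not tested. SREBF1, also a known target and in the same list, was among the genes called lower. The call of ABCG1, which had at most 70.2 normalized counts, was lost when any 1 of the 6 libraries was left out (adjusted p between 0.0527 and 0.176).

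Fatty acid genes followed the sterol enzymes, with 11 of 19 lower and 2 higher (ME1 and SCD5). SCD, the main desaturase, had 65882, 69070 and 67737 normalized counts with siRNA1, against 109431, 108339 and 109421 with siRNA2, without overlap. Log2 differences were -0.69 ± 0.03 for SCD, -0.73 ± 0.03 for the citrate lyase ACLY, -1.04 ± 0.07 for the acetyl-CoA synthetase ACSS2 and -0.63 ± 0.04 for the desaturase FADS1. NC means lay between the siRNAs for SCD, ACLY and ACSS2.

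Glycolytic enzymes were lower with siRNA1, while the glucose transporter SLC2A3 was far higher. Of 23 members tested, 16 were lower and SLC2A3 alone was higher, with a median of -0.34. ALDOA, the main aldolase, had 40902, 38181 and 36059 normalized counts with siRNA1, against 74157, 72697 and 73948 with siRNA2. HK2, the inducible hexokinase, had 4879, 5162 and 4926 with siRNA1, against 8915, 9046 and 9057 with siRNA2. Both were about as far apart (-0.94 ± 0.04 and -0.85 ± 0.04), with NC between the groups at 47548 and 5967. LDHA, which makes lactate, differed by -0.85 ± 0.04, and its NC mean of 76482 was above both groups.

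Targets of the hypoxia-inducible factors (HIF) outside glycolysis moved in the same direction, with 18 of 27 lower and 3 higher and a median log2 difference of -0.57. NDRG1, a stress-responsive protein, had 8429, 8076 and 8053 normalized counts with siRNA1, against 22776, 23652 and 23535 with siRNA2, and a mean of 15802 in NC. The 3 groups were separate and the difference was -1.51 ± 0.04 (adjusted p = 2.11e-09). The collagen prolyl hydroxylase subunit P4HA1 (-1.37 ± 0.06), the mitophagy receptor BNIP3 (-1.34 ± 0.07) and the mTORC1 inhibitor DDIT4 (-1.13 ± 0.06) were lower too. Of the 3 members that were higher, CA12 differed by 0.57 ± 0.14 and ANGPTL4 by 0.35 ± 0.09, and without siRNA2 replicate 2 CA12 alone was called. ANGPTL4 also lost its call without siRNA1 replicate 3 (adjusted p = 0.0514).

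Proliferation genes were higher with siRNA1. Of 42 genes of G2/M and mitosis, 26 were higher and 1, CDC25B, was lower, with a median log2 difference of 0.23. PLK1, a mitotic kinase, had 8498, 8527 and 8516 normalized counts with siRNA1, against 5177, 5193 and 5102 with siRNA2. Its replicates lay within a narrow range in each group, and NC, at a mean of 8103, was close to siRNA1. CCNA2 (0.58 ± 0.05), ECT2 (0.47 ± 0.04) and MKI67 (0.44 ± 0.04) were higher as well. Of 46 genes of G1/S and DNA replication, 28 were higher and 5 lower, with a median of 0.19. The helicase subunit MCM3 had 15644, 14884 and 15400 normalized counts with siRNA1, against 8953, 9422 and 8708 with siRNA2, without overlap (0.76 ± 0.04). CDC25A (0.63 ± 0.05), which activates cyclin-dependent kinases at S phase entry, and GINS1 (0.61 ± 0.06) were higher. CCNE1, the G1/S cyclin E1, went the other way, with 1603, 1415 and 1488 with siRNA1, against 3132, 2871 and 3039 with siRNA2 (-1.0 ± 0.07), and the other 4 lower members were SLBP (-0.24), PCNA (-0.20), RFC5 (-0.18) and RRM2 (-0.13). Without siRNA1 replicate 3 the number lower was 3, since RFC5 and RRM2 lost their calls. RFC5 also lost it without siRNA2 replicate 2, and RRM2 without siRNA1 replicate 2, siRNA2 replicate 1 or siRNA2 replicate 3. DNA repair genes were mixed, with 12 of 35 higher, including FANCD2 (0.50 ± 0.04), and 4 lower, including STN1 (-1.02 ± 0.06) and XRCC4 (-0.64 ± 0.05). The shares among all listed genes were 27.0% higher and 27.2% lower.

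Targets of p53 were mostly lower with siRNA1, with 18 of 28 lower, 3 higher and a median of -0.37. BTG2, an antiproliferative gene, had 2508, 2610 and 2111 normalized counts with siRNA1, against 7594, 7725 and 8185 with siRNA2, and 2797, 2712 and 2822 in NC. The siRNA2 libraries stood high, and the siRNA1 libraries lay just below NC (log2 difference -1.70 ± 0.07). TP53INP1 showed the opposite arrangement around NC, with 1101, 1096 and 1185 with siRNA1, against 2929, 3038 and 2837 with siRNA2 and 3249, 3049 and 3242 in NC (-1.38 ± 0.07). GADD45A (-1.11 ± 0.06) and the cell cycle inhibitor CDKN1A (-0.65 ± 0.05) were lower, and ZMAT3 (0.83 ± 0.05), PLK2 (0.22 ± 0.04) and CCNG1 (0.19 ± 0.04) were higher.

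Among immediate early genes, 12 of 23 were lower and 3 (ATF3, NR4A1 and FOSL2) higher, with a median of -0.41. EGR1 had 3652, 3685 and 3936 normalized counts with siRNA1, against 7616, 7448 and 8035 with siRNA2, and 2423, 2327 and 2227 in NC, so both siRNA groups lay above NC and siRNA2 lay highest (-1.04 ± 0.05). MYC (-0.68 ± 0.03), KLF6 (-0.89 ± 0.04) and KLF10 (-0.80 ± 0.04) were lower. Of 18 ERK feedback genes, 8 were lower, including DUSP6 (-0.97 ± 0.04), SPRY4 (-0.85 ± 0.04) and CCND1 (-0.41 ± 0.03), and 4 were higher, including the receptor EPHA2 (0.55 ± 0.03). Receptor tyrosine kinases and their ligands had 9 of 29 lower, including the ligand EREG (-0.77 ± 0.04) and the receptor MET (-0.51 ± 0.04), and 5 higher, including AXL (0.44 ± 0.04). Among all listed genes, 27.0% were higher and 27.2% lower.

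Genes of cell contact and shape separated the siRNAs. Of 23 targets of the Hippo effectors YAP and TAZ, 15 were higher with siRNA1, with a median of 0.55. CCN1 (CYR61), a matricellular protein, had 4876, 4893 and 4843 normalized counts with siRNA1, against 946, 1012 and 1077 with siRNA2 and 1084, 1077 and 1168 in NC. It was raised in the siRNA1 libraries alone (2.27 ± 0.06, adjusted p = 3.56e-09). CCN2 (CTGF) had 776, 972 and 1001 with siRNA1, against 305, 359 and 259 with siRNA2 (1.57 ± 0.15), and tissue factor F3 (1.04 ± 0.05) and the pathway kinase LATS2 (0.66 ± 0.06) were higher too. The 2 lower members were NT5E (CD73), with 6419, 6106 and 6203 with siRNA1, against 14625, 14395 and 14832 with siRNA2 (-1.23 ± 0.04), and MYOF (-0.13 ± 0.04), whose call was lost without siRNA1 replicate 2, siRNA2 replicate 1 or siRNA2 replicate 2, which left NT5E alone.

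Epithelial junction genes were higher in 13 of 23 cases and lower in 2 (CTNNA1 and DSG2), with a median of 0.37. E-cadherin, CDH1, had 3393, 3423 and 3643 normalized counts with siRNA1, against 1369, 1163 and 1385 with siRNA2 and 2786, 2938 and 3057 in NC. The siRNA2 libraries were the low ones (log2 difference 1.42 ± 0.08). CGN (1.12 ± 0.06), EPCAM (0.83 ± 0.04) and PKP3 (0.70 ± 0.06) were higher. ZEB1, a repressor of CDH1, had 456, 470 and 522 with siRNA1, against 1296, 1363 and 1547 with siRNA2, a log2 difference of -1.54 ± 0.10 in the opposite direction to CDH1. Mesenchymal state genes as a list were mixed, with 4 lower, among them VIM, ZEB1 and S100A4, FN1 and MMP14 higher, and 6 of 12 not called. The call of S100A4 was lost without siRNA1 replicate 2 or 3 or siRNA2 replicate 1 or 3. The number of junction genes lower was 1 without siRNA1 replicate 2, siRNA2 replicate 1 or siRNA2 replicate 3, since DSG2 lost its call in each case.

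**Figure D4:**
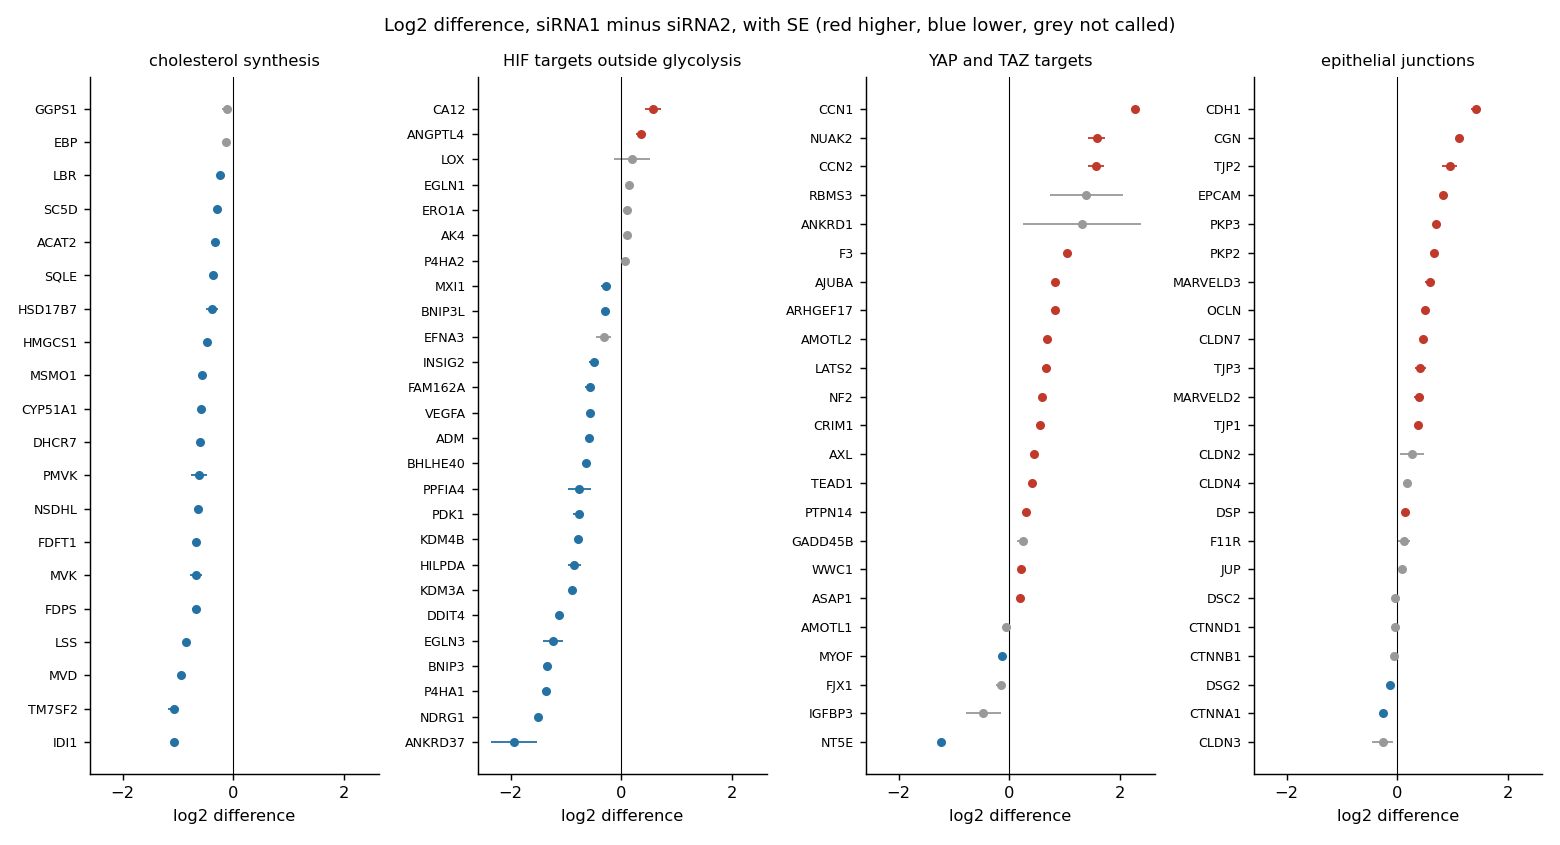
Log2 difference, siRNA1 minus siRNA2, with its SE for tested members of 4 gene lists. Members of cholesterol synthesis and most HIF targets lie left of 0, and most YAP and TAZ targets and junction genes lie right of 0, with NT5E the clearest exception.

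Matrix and adhesion genes were called in both directions, beside shares of 27.0% higher and 27.2% lower among all listed genes. Of 29 collagens, laminins and integrins, 12 were higher and 8 lower. ITGB4, the hemidesmosome integrin, had 21260, 21853 and 22308 normalized counts with siRNA1, against 53130, 53705 and 53083 with siRNA2 (-1.29 ± 0.03, adjusted p = 2.11e-09). ITGB1 (-0.74 ± 0.03) was lower with it, and the laminin subunit LAMB3 was higher (0.65 ± 0.04). Of 24 genes of the actin cytoskeleton, 8 were higher and 7 lower, with VCL (vinculin) at 9607, 9615 and 9562 with siRNA1, against 21550, 21502 and 21240 with siRNA2 (-1.16 ± 0.03). Among 20 keratins and S100 or annexin genes, 5 keratins (KRT80, KRT7, KRT86, KRT81 and KRT18) were higher and 11 members were lower, including ANXA1 (-0.55 ± 0.03), S100A10 (-0.58 ± 0.04) and KRT19 (-0.55 ± 0.05). KRT18 lost its call without siRNA2 replicate 1, 2 or 3.

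The TGF-beta and BMP genes had 6 of 21 in each direction, near the 27.0% higher and 27.2% lower of all listed genes. The list was therefore not set apart from the listed genes together. Within it, the inhibitory SMADs differed most. SMAD7 had 608, 655 and 662 normalized counts with siRNA1, against 126, 119 and 110 with siRNA2 and 496, 530 and 537 in NC. SMAD6 had 622, 584 and 516 with siRNA1, against 142, 125 and 126 with siRNA2 and 623, 692 and 725 in NC. Both were low in the siRNA2 libraries alone, with log2 differences of 2.44 ± 0.15 and 2.13 ± 0.16 for SMAD7 and SMAD6. ID1, a target of BMP signalling that inhibitory SMADs restrain, had 3284, 2539 and 2635 with siRNA1, against 9471, 8938 and 9062 with siRNA2 (-1.70 ± 0.08). In the Wnt and stem cell list, NOTUM was higher (1.32 ± 0.13) and SOX4 (-1.08 ± 0.05) and CD44 (-0.54 ± 0.03) lower, with 10 of 17 not called.

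Stress programmes differed from one list to the next. Heat shock genes were higher in 10 of 17 cases with a median of 0.22, including HSPD1, HSP90AA1, BAG3 (0.50 ± 0.04) and HSPB1 (0.45 ± 0.05), and HSPA8 was lower (-0.17 ± 0.04). NRF2 targets had 9 of 29 higher and 10 lower with a median of -0.01, beside 27.0% higher and 27.2% lower of all listed genes. The thioredoxin reductase TXNRD1 had 22863, 22526 and 23140 normalized counts with siRNA1, against 48636, 47506 and 48613 with siRNA2 (-1.08 ± 0.03). The multidrug transporters ABCC2 (0.71 ± 0.06) and ABCC1 (-0.53 ± 0.04) moved in opposite directions. In iron handling, the transferrin receptor TFRC (0.73 ± 0.04), SLC39A8 (1.15 ± 0.08) and STEAP3 (0.45 ± 0.05) were among 7 of 15 higher, and ferritin FTH1 (-0.24 ± 0.03) and SLC25A37 were lower. Polyamine genes included SAT1, the catabolic acetyltransferase, with 7234, 7115 and 7070 with siRNA1, against 20453, 19047 and 19894 with siRNA2 and 7727, 7066 and 7314 in NC. Only the siRNA2 libraries were high (-1.47 ± 0.04, adjusted p = 3.54e-09).

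Apoptosis genes were called in both directions, with 9 of 34 higher and 13 lower and a median of -0.15, against 27.0% higher and 27.2% lower of all listed genes. XIAP, an inhibitor of caspases, had 4130, 4536 and 4174 normalized counts with siRNA1, against 1611, 1833 and 1866 with siRNA2 (1.27 ± 0.07), while the related BIRC3 had 763, 844 and 796 with siRNA1, against 2130, 2365 and 2353 with siRNA2 (-1.51 ± 0.08). Of 21 amino acid transporters, 10 were higher, including SLC6A9 (1.58 ± 0.17), SLC1A3 (1.21 ± 0.09) and SLC7A5 (0.32 ± 0.03), and 2 were lower, SLC38A2 (-0.64 ± 0.03) and SLC7A1. Without siRNA2 replicate 3, SLC7A1 was not called.

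Immune lists had calls in both directions, beside shares of 27.0% higher and 27.2% lower among all listed genes. Of 31 interferon response genes, 8 were higher, including EIF2AK2 (0.45 ± 0.04) and HERC5 (0.58 ± 0.09), and 4 lower (IFIT2, DDX58, IFIT1 and ISG20). The number higher was 5 without siRNA1 replicate 3 or siRNA2 replicate 2, and the number lower was 7 with DESeq2. IFIT2 had 156, 129 and 129 normalized counts with siRNA1, against 427, 473 and 478 with siRNA2 (-1.73 ± 0.17). Of 20 NF-kB targets, 7 were higher, including TNFAIP2 (0.71 ± 0.06), ICAM1 (1.30 ± 0.15) and SOD2 (0.46 ± 0.05), 3 were lower (BIRC3, IER3 and LIF), and 4 were higher without siRNA1 replicate 1 or siRNA1 replicate 2. Of 15 ligands of NKG2D and immune checkpoints, 4 were higher, including VSIR (1.21 ± 0.11), and 3 lower, which were CD276 (-0.39 ± 0.04), ULBP3 (-0.54 ± 0.07) and MICA (-0.31 ± 0.05). Of 17 genes of MHC class I presentation, 5 were higher, including the transactivator NLRC5 (1.19 ± 0.17), and 2 lower, including HLA-E (-0.44 ± 0.04). The number higher was 3 without siRNA1 replicate 1 or 2 or siRNA2 replicate 2 or 3, and the number lower was 5 without siRNA1 replicate 1.

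The machinery of RNA interference itself was partly called, beside shares of 27.0% higher and 27.2% lower among all listed genes. AGO2, the Argonaute that cuts targets, had 21456, 23705 and 23111 normalized counts with siRNA1, against 22910, 23497 and 23216 with siRNA2, and the groups overlapped (-0.03 ± 0.04, adjusted p = 0.671). DICER1 overlapped as well (0.04 ± 0.07). The 95% intervals of the log2 difference were -0.12 to 0.06 for AGO2 and -0.11 to 0.19 for DICER1. Of 22 members, 8 were higher, including AGO1 (0.41 ± 0.06), TSN (0.67 ± 0.05), the decapping factor DCP1A (0.80 ± 0.06) and CNOT1 (0.48 ± 0.04), and 3 were lower, PAN2 (-0.55 ± 0.06), TNRC6B (-0.40 ± 0.06) and DDX6.

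The count of ribosomal protein genes called depended on single libraries. Of 61 tested, 15 were lower and 1 (RPSA) higher, with a median of -0.11. RPL23 had 14445, 11500 and 11581 normalized counts with siRNA1, against 24613, 22790 and 23982 with siRNA2 (-0.93 ± 0.08). Replicate 1 had the highest of these siRNA1 values, as it had for RPL3, RPS14 and RPS25. Without siRNA1 replicate 1, 52 of the 61 were lower, and the number was 5 without siRNA1 replicate 2 or siRNA2 replicate 1 and 6 without siRNA1 replicate 3 or siRNA2 replicate 3. RPSA lost its call without siRNA2 replicate 2. Nuclear genes of the respiratory chain were mostly not called (31 of 42), with COX5A the most different (-0.95 ± 0.06).

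The genes that the study places downstream of LINC00857 did not differ detectably between the siRNAs. The study screened them as genes lowered in the data of both siRNAs. It kept PIWIL4 as a target with tumour data and quantitative PCR. Comparing the siRNAs with each other does not test that lowering. PIWIL4, TREX1, TEN1 and RPL17-C18orf32 were tested, and 0 of 4 passed edgeR's test, also at an unadjusted p of 0.05, or that of DESeq2 or limma-voom. TREX1, an exonuclease of cytosolic DNA, had 32.9, 11.7 and 8.01 normalized counts with siRNA1, against 6.9, 21.9 and 27.5 with siRNA2, and the 95% interval of its log2 difference was -1.80 to 1.62. PIWIL4, an Argonaute-family protein, had 24.4, 19.5 and 36.0 with siRNA1, against 9.86, 8.76 and 30.5 with siRNA2, with an interval of -0.77 to 2.16. At these counts even a large difference could be missed. TEN1, a telomere-capping subunit (interval -0.86 to 1.67), was called higher without siRNA2 replicate 1 (log2 difference 1.51, adjusted p = 0.0402), and RPL17-C18orf32 is a readthrough model with an interval of -1.08 to 0.70. TBC1D28 did not pass the filter.

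The seed sites of the guides were then counted in 3′ UTRs. For 12670 tested genes with a mean of at least 50 normalized counts, the longest 3′ UTR of GENCODE v29 was searched on its own strand for GTGAACA, the site pairing with the siRNA1 seed, and GTGAATA, the site pairing with the siRNA2 seed. Of these genes, 21.4% were called higher and 21.1% lower with siRNA1. The siRNA1 site was present in 13.6% of all 12670 UTRs. It was in 20.5% (548 of 2668) of the UTRs of genes lower with siRNA1, in 11.7% of those of genes higher, and in 11.8% of those not called. The siRNA2 site was present in 13.1% of all UTRs, in 7.72% of those of genes lower with siRNA1, in 24.1% (655 of 2713) of those of genes higher, and in 10.9% of those not called. So each guide's site was most frequent among the genes that were lower with that same siRNA. The seed sites of the passenger strands showed smaller contrasts: ACATAGC of siRNA1 was in 8.55% of UTRs of genes lower and 11.2% of genes higher, and CTAATAC of siRNA2 in 6.93% and 7.85%. TGTCACG, the site of the NC guide, was in 3.67% and 4.20%. Genes called higher also had longer UTRs (median 2050 bases) than genes called lower (1681 bases) or not called (1488 bases), and longer UTRs hold more sites of any kind.

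Grouped by site, the genes shifted in opposite directions. The 1326 genes with only the siRNA1 site had a median log2 difference of -0.11, and 35.5% of them were lower and 14.6% higher with siRNA1. The 1257 genes with only the siRNA2 site had a median of 0.18, and 10.3% were lower and 42.2% higher. The 9688 genes with neither site had a median of -0.01, with 20.6% lower and 19.3% higher. The 399 genes with both sites had a median of 0.07. Against NC, the genes with only the siRNA1 site had a median log2 difference of -0.10 in siRNA1 cells and 0.01 in siRNA2 cells, and those with only the siRNA2 site 0.02 in siRNA1 cells and -0.17 in siRNA2 cells, where both comparisons share the NC libraries.

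**Figure D5:**
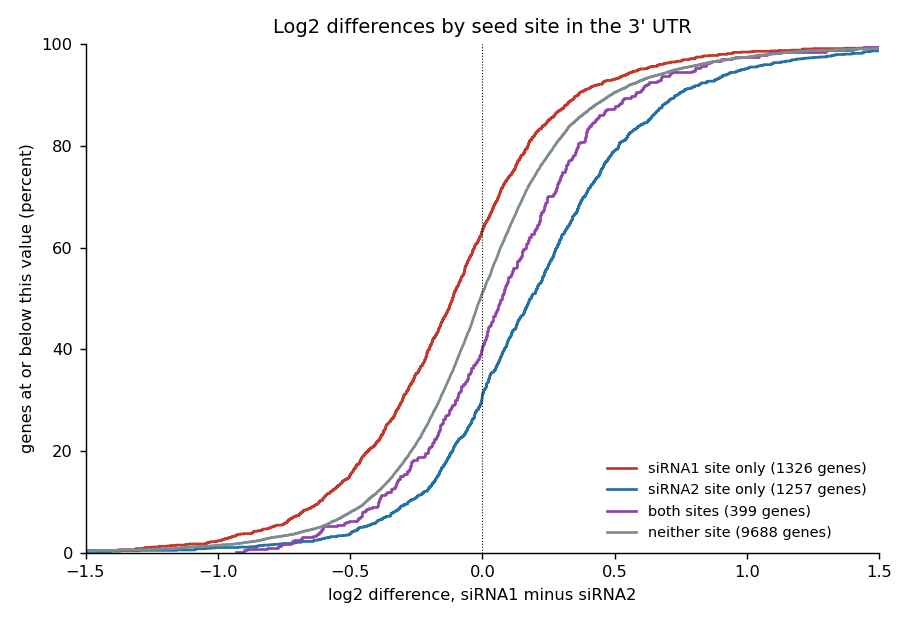
Cumulative percent of genes by log2 difference, siRNA1 minus siRNA2, for genes whose 3′ UTR holds only the siRNA1 seed site (1326 genes, red), only the siRNA2 seed site (1257, blue), both (399, purple) or neither (9688, grey); values beyond 1.5 in either direction are outside the axis. The red curve lies left of the grey one and the blue curve right of it over the whole middle range.

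The medians differed in the same direction in each band of UTR length. In UTRs under 1000 bases the median was -0.20 for 136 genes with only the siRNA1 site, 0.26 for 133 genes with only the siRNA2 site and -0.03 for 3843 genes with neither. In UTRs of 1000 to 2500 bases the medians were -0.17, 0.18 and -0.003 in the same order, and in UTRs over 2500 bases they were -0.07, 0.17 and 0.02. By number of sites, the siRNA2 medians were 0.16 for 1083 genes with 1 site, 0.29 for 143 genes with 2 and 0.28 for 31 genes with 3 or more. For siRNA1 the medians were -0.11 for 1164 genes with 1 site, -0.15 for 143 genes with 2 and -0.04 for 19 genes with 3 or more, so the median did not grow steadily with the number of sites. A seed match is a description of the sequence, not a binding site, and most genes with only the siRNA1 site were not called lower with siRNA1.

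The genes with the largest differences of the matching kind are shown with their sites, each aligned to the 19-base target with the seed site in capitals. Lower with siRNA1 and holding only its site were these 4.
AKR1C2: ttcttgtaaatGTGAACAt
IFIT2: cattgacctacGTGAACAc
BTG2: ggttagcaactGTGAACAg
VGLL4: tctctttgtcaGTGAACAa
They matched the target at 10, 8, 13 and 10 of 19 letters. VGLL4, which competes with YAP for TEAD factors, had 909, 1032 and 890 normalized counts with siRNA1, against 2639, 3016 and 2928 with siRNA2 and a mean of 1936 in NC (-1.60 ± 0.08). AKR1C2, a ketosteroid reductase with near-identical paralogs that make its count uncertain, had 24.4, 16.6 and 31.0 with siRNA1, against 219, 89.8 and 134 with siRNA2 (-2.62 ± 0.40). The siRNA1 libraries of VGLL4 lay well below NC, while AKR1C2, IFIT2 and BTG2 were high in the siRNA2 libraries and near NC with siRNA1.

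Higher with siRNA1, and so lower with siRNA2, and holding only the siRNA2 site were the following.
SLC2A3: ctgagaagattGTGAATAt
TMEM132B: tgtgtgtgtgtGTGAATAc
SLC26A4: ctatgtattttGTGAATAg
GPSM3: gttttggttgtGTGAATAa
They matched the siRNA2 target at 11, 13, 10 and 12 of 19 letters. SLC2A3 lay far above NC with siRNA1 and less far below it with siRNA2. Most of its log2 difference was therefore a rise with siRNA1. SLC26A4 (pendrin), an anion exchanger, had 115, 149 and 160 normalized counts with siRNA1, against 26.6, 49.3 and 17.3 with siRNA2 (2.19 ± 0.39). TMEM132B had 137, 166 and 67.0 with siRNA1, against 11.8, 27.4 and 28.5 with siRNA2 (2.45 ± 0.45). GPSM3 had 59.2, 178 and 143 with siRNA1, against 29.6, 13.1 and 59.0 with siRNA2 (1.90 ± 0.54), groups that barely part, and its call was lost when siRNA1 replicate 2 or 3 or siRNA2 replicate 1 or 2 was left out. Sites were also found in genes described above. XIAP and ZMAT3, both higher with siRNA1, held 3 siRNA2 sites each and no siRNA1 site, and CCNA2 and DNAJB11 (0.98 ± 0.06) held 2 each. VCL, ACSS2, MVD, COX5A and TP53INP1, all lower with siRNA1, held 1 siRNA1 site and no siRNA2 site. Some went against this pattern: AKAP12 and TXNRD1, lower with siRNA1, held 1 siRNA2 site and no siRNA1 site, and SLC1A3, higher, held 1 siRNA1 site and no siRNA2 site. KRT80, KRT7, CYP11A1, SMAD6, SMAD7, CCN1 and CDH1, all much higher with siRNA1, held neither site, and DCLK1 held 1 siRNA1 site and 2 siRNA2 sites.

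Near matches to the full targets were few. In transcripts of the tested genes, 45 other genes held a stretch with at most 3 mismatches to a target or a run of at least 13 matching letters. For siRNA1 there were 29, of which 8 were lower, 4 higher and 17 not called. Without siRNA1 replicate 2, the lower calls of VPS9D1, INTS11, GLB1, MYO15B, TMEM42 and MGC16275 were lost, and so was the higher call of LRBA. For siRNA2 there were 16, of which 3 were lower, 3 higher and 10 not called. CPSF6, one of those lower, lost its call without siRNA2 replicate 3. The fewest mismatches were 3 for siRNA1 and 2 for siRNA2. Among all genes tested, 15.0% were higher and 14.7% lower, and with so few near matches no direction was read from these counts. The closest matches are shown with capitals at each letter equal to the target: all 3 with 2 mismatches to the siRNA2 target, and the 4 with 3 mismatches to the siRNA1 target that had the longest matching runs.
CLIC4 (3′ UTR, siRNA2): GGTtTTAGTGGGTGAAaAT
GGNBP2 (noncoding transcript, siRNA2): GGTATTAGTGtGTGAtTAT
LUC7L3 (3′ UTR, siRNA2): GtTATTAGTtGGTGAATAT
ZNF213-AS1 (noncoding transcript, siRNA1): tGCTATGTGCTGTGAcCAg
CDC42SE2 (3′ UTR, siRNA1): tGCTATGTGCTGTGtgCAA
HDAC8 (3′ UTR, siRNA1): aGgTAaGTGCTGTGAACAA
KCTD10 (3′ UTR, siRNA1): GGtgATGTGCTGTGAAaAA
Of these 7 genes, CLIC4 and KCTD10 were called and the other 5 were not. ZNF213-AS1 (-0.29 ± 0.15), CDC42SE2 (0.04 ± 0.06), HDAC8 (-0.20 ± 0.09), which keeps the whole siRNA1 seed site, and GGNBP2 (0.04 ± 0.07) were among those not called. LUC7L3, a splicing factor that keeps the whole siRNA2 seed site, had 15314, 15509 and 14727 normalized counts with siRNA1, against 14781, 14029 and 14673 with siRNA2, and the groups overlapped (0.07 ± 0.04, adjusted p = 0.229). CLIC4, an intracellular chloride channel protein, was lower with siRNA1 and not with siRNA2 (-0.76 ± 0.03), the direction opposite to its match. KCTD10, an adaptor of a ubiquitin ligase, had 2215, 2152 and 2327 with siRNA1, against 3536, 3659 and 3591 with siRNA2, with a mean of 4657 in NC (-0.69 ± 0.05). Of the 8 siRNA1 near matches that kept the whole seed site, 2 were higher and 2 lower with siRNA1, and of the 3 siRNA2 near matches that kept it, USF3 and AC093297 were higher with siRNA1, USF3 by 0.20 ± 0.06 with its call lost without siRNA1 replicate 1 or 2 or siRNA2 replicate 2 or 3.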

How the data were processed

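RNA was sequenced from 9 libraries of HCT116 cells, 3 per siRNA and 3 with NC. The deposited values were raw counts per gene, made by the authors from reads sequenced by Lianchuan Biotechnology. The submitters' processing notes name hg19, and the aligner, counting program, annotation and strand setting are not stated, so reads of overlapping, antisense or near-identical genes cannot be told apart. Depth was 51411860 to 57815092 counts per library, and precision was lowest at low counts. Libraries of one group differed by more than counting error alone gives, with a chi-square per gene of 10.2 to 18.9 between pairs.

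Groups came from the sample titles. The 6 siRNA libraries were filtered with filterByExpr (minimum count 10, minimum total 15), scaled by TMM and tested by the quasi-likelihood test of edgeR 4.0.16 in R 4.3.3, siRNA1 minus siRNA2, two-sided, with Benjamini-Hochberg adjustment over 19996 genes and a threshold of 0.05. Normalized counts are counts scaled by TMM to one library size, and a level against NC came from a fit of all 9 libraries. With 3 libraries against 3, an exact permutation test of a single value cannot go below 0.1. Simulated counts on 19307 genes for siRNA1 against siRNA2 were used to test the script: the test called 56.7% of genes given a log2 change of 0.5, 89.6% at a change of 1, 100% at a change of 2, and 11 of 19107 unchanged genes.

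Gene types, transcripts and 3′ UTRs came from GENCODE v29 (GRCh38), joined by gene ID (34766 of 35817 matched), and its coordinates were not mixed with hg19. Seed and target letters were derived from the siRNA strands given in the study's methods, and the seed search used genes with a mean of at least 50 normalized counts. Near matches had at most 3 mismatches or a run of at least 13 letters.

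The gene lists, members and rules were chosen with earlier results of these data known. Named genes were LINC00857, the 8 per direction with the largest log2 difference and the 6 with the largest CPM difference among called genes without overlap and with a mean of at least 50, up to 4 called members per list by adjusted p, every gene the study places downstream, 4 genes per direction with only the seed site of the siRNA with the lower level, and near matches. Genes named beyond this rule, such as ABCA1, KRT7, ZEB1, AGO2 and the members called against a list's direction, were chosen after their values were seen. Alternatives were DESeq2 1.42.0, limma-voom (limma 3.58.1), other scalings and filters, all 9 libraries, a replicate block, protein-coding genes only, other seed site definitions and leaving out each library. Some genes that the rule names are not reported here.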

Additional observations from a re-analysis of the deposited data

How the results depend on the processing

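The number of genes called higher with siRNA1 was 2995 and lower 2938, and every alternative stayed within 1.5 times of these: 3239 and 3149 with DESeq2, 3071 and 3031 with limma-voom, 3100 and 2798 with upper-quartile scaling, 2473 and 2413 with no filter, and 3201 and 3015 with all 9 libraries fitted. With 1 library left out, 2372 to 2793 genes were higher and 2367 to 2958 lower, 408 to 508 higher and 241 to 302 lower with a log2 difference over 1, and 237 to 281 list members higher and 241 to 337 lower, and the LINC00857 difference was 0.01 to 0.25. With the replicate block, 2912 genes were higher and 2877 lower. Same-numbered libraries correlated at 0.05, -0.012 and 0.052 in their deviations, so the numbers were not taken as pairs.

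With an 8-letter seed site the median log2 difference was -0.128 for genes with only the siRNA1 site and 0.204 for genes with only the siRNA2 site. The siRNA1 site was then in 6.56% of genes called lower, against 3.84% of all genes searched. The siRNA2 site was in 10.2% of genes called higher, against 5.0% of all genes searched. Among UTRs with exactly 1 of the guide sites these shares of called genes were 78.5% and 73.3%, against 51.3% and 48.7% of all genes in that class. The longer site is rarer and the last class is restricted by construction.

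Of 291 named genes, 8 changed sign in some alternative, all of them not called by the test reported. With 1 library left out the log2 differences ran from -0.06 to 0.01 for AGO2, -0.02 to 0.09 for DICER1, -0.03 to 0.09 for GGNBP2, -0.51 to 0.27 for RPL17-C18orf32, -0.12 to 0.0038 for TMEM120B, -0.92 to 0.30 for TREX1, -0.15 to 0.08 for WNT10B and -0.18 to 0.88 for ZAP70. The call was lost in at least 1 alternative for 29 named genes, and the cause was not tested. At fewer than 50 normalized counts the median SE of 0.706 leaves all but large differences undetected.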
